A study of Mus musculus with 2 samples.

Results

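The 42 genes described here encode collagen chains. They were chosen by their symbols, Col followed by a type number, a and a chain number, among the 18194 genes that 1 or more probe sets of the array name alone, and they were represented by 82 probe sets. No measured value entered that rule, but members and lists were chosen with earlier results of these data known. RNA came from thioglycolate-elicited peritoneal macrophages, inflammatory cells that gather in the peritoneum after an irritant is injected. They were washed out of wild type C57BL6 male mice, aged 8 weeks, 1 week after injection, and grown in culture to 80% confluence. The control sample was then kept for 12 h without CSF1, and the CSF1 sample for 12 h with 100 ng/ml CSF1 (macrophage colony-stimulating factor), the ligand of the receptor tyrosine kinase Csf1r. Each was hybridised to 1 Affymetrix Mouse Genome 430 2.0 array, and the comparison asks how expression differed after CSF1. The labels do not say how many mice were pooled, whether both samples came from the same mice, or whether cells other than macrophages were removed.

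Collagens are extracellular matrix proteins in which chains with glycine repeats wind into a triple helix. Fibrillar chains build the cross-linked fibrils of connective tissue, type IV chains build the sheet-like network of basement membranes, and further types coat fibrils, anchor epithelia, form fine filaments or span the plasma membrane. Fibroblasts and other stromal cells are the main known producers of type I and type III collagen, and macrophages are better known for taking up and degrading collagen.

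With 1 array per group there is no replicate, so no test, p-value or standard error between the groups was possible, and precision is limited by having 2 arrays. The measure is the log2 ratio, CSF1 over control, on the brightest probe set of each gene, in the authors' arbitrary signal units. The error given is the standard deviation (SD) between probe sets of a gene that were above background on both arrays, pooled at 0.30 on the log2 scale over 3945 genes. It covers neither cultures nor animals. Signals of different probe sets cannot be ranked against each other, since each probe set binds with its own strength. Signals summed over a list therefore mainly follow its members with the strongest signal, and are not amounts of RNA. Background was set at 127 units, which 90% of the values of 122 probe sets did not exceed. These belong to 87 genes of eye lens, photoreceptor, sperm, pituitary, pancreas and olfactory cells. A gene above it on at least 1 array is called measured, and one at background on 1 array has a lower bound in place of a fold.

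Across all genes, 42.5% of probe sets on the CSF1 array and 44.5% on the control array were above background, and the median log2 ratio of the 11433 measured genes was 0.00. For the 18 hybridisation spikes the log2 ratio averaged -0.29 ± 0.13 (SD over spikes). Centring on them moved the median of all genes to 0.28, so ratios are read relative to the other genes. The ratio of 3' to 5' signal of Gapdh was 1.03 in control and 1.40 with CSF1, that of Actb 1.35 and 1.38. Its part in the collagen values was not tested.

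Of the 42 collagen genes, 24 (57.1%) were measured, against 62.8% of all genes on the array. Of these, 19 were above background on both arrays, 4 on the CSF1 array only, against 5.79% of measured genes, and 1 on the control array only. Among the 19, 16 had a higher signal on the CSF1 array and 3 a lower one, where 50.9% of all 9898 genes that passed background on both were higher. The median log2 ratio of the 19 was 0.30, and the values ran from -0.36 to 1.37, with an SD over genes of 0.43 against 0.36 for all such genes. At least 1.25-fold higher were 9 of the 19, against 16.5% of all such genes, and at least 1.25-fold lower were 2 of the 19, against 14.9%. With the 5 bounds included, 20 of 24 were above 0, against 49.9% of all measured genes, with a median of 0.36. Past 2-fold higher were 2 of 24, Col11a1 and Col4a5, against 1.07% of measured genes. Both were above background on both arrays, where 0.828% of genes were past 2-fold higher, and 0 of 24 were 2-fold lower, against 0.848%.

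The direction of the group did not turn on the scaling of the arrays. Relative to the median of all genes, 20 of 25 measured collagen genes were higher after centring on the spikes or quantile normalization, and 20 of 24 after centring on the median or a loess correction for signal level. Col5a1, at -0.07 as deposited, was at 0.22 after centring on the spikes, which is -0.06 relative to all genes.

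**Figure D1:**
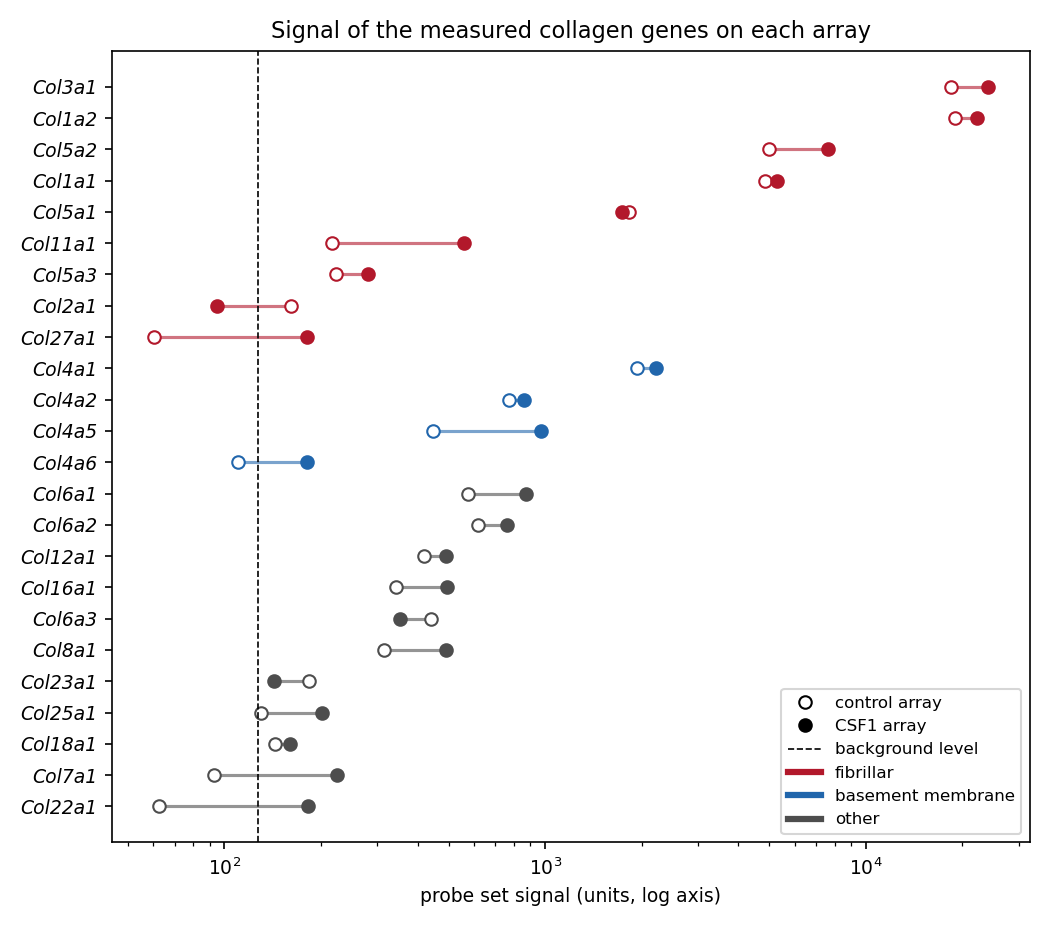
Signal of the 24 measured collagen genes on the control array (open circles) and the CSF1 array (filled circles), in arbitrary units on a log axis, coloured by class and ordered by mean signal within each class. The dashed line is the background level of 127 units; 20 genes have the filled circle to the right, and Col5a1, Col2a1, Col6a3 and Col23a1 have it to the left.

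Promoter sequence was available from RefSeq (GRCm38.p6) for 19 of the 24 measured genes, as windows from 250 bases before to 50 after a start site. Each window was searched on both strands for the letters CCAAT (the CCAAT box, known in the type I promoters), GGGCGG (the GC box) and TATAAA (the TATA box). The 6 windows below belong to chains the values turn on, printed 5′ to 3′ on the strand of the gene with matches in capitals. On the brightest probe sets, Col4a1 and Col4a2 had nearly the same log2 ratio, and Col4a5 and Col11a1 were past 2-fold. The other probe set of Col4a1 was at 0.50. Col4a1 and Col4a2 lie head to head, and Col1a2 and Col3a1 encode chains of the main connective tissue fibrils. The windows are chr8:11312777-11313076 (minus strand), chr8:11312555-11312854 (plus strand), chrX:141475169-141475468 (plus strand), chr3:114030290-114030589 (plus strand), chr6:4505368-4505667 (plus strand) and chr1:45311288-45311587 (plus strand).
Col4a1: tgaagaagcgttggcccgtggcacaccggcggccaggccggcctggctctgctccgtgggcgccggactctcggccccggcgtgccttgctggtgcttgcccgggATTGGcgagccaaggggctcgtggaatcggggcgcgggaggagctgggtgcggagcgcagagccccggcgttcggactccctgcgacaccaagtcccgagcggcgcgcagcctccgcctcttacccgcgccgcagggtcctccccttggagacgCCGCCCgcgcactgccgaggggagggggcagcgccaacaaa
Col4a2: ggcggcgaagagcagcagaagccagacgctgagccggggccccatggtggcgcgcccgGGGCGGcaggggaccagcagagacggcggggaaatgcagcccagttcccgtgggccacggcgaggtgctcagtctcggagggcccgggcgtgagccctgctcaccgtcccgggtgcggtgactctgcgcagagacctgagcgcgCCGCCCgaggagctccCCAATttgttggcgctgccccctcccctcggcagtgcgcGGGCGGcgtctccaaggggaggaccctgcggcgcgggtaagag
Col4a5: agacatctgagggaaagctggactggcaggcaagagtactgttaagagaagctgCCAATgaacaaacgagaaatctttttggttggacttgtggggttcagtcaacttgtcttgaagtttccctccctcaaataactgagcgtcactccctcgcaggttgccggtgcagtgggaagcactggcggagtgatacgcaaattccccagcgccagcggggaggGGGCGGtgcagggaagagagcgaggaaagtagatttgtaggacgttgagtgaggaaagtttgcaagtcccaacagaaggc
Col11a1: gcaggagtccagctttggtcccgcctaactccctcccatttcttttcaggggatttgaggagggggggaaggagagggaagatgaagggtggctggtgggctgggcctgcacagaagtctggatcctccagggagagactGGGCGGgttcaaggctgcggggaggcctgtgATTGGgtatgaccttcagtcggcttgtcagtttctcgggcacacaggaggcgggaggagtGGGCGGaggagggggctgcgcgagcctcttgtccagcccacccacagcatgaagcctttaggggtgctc
Col1a2: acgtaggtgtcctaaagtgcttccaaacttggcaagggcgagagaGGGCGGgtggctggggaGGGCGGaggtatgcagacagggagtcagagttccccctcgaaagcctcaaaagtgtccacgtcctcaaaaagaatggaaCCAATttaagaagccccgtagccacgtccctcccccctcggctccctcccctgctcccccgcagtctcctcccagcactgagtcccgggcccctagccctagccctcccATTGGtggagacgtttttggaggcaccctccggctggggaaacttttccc
Col3a1: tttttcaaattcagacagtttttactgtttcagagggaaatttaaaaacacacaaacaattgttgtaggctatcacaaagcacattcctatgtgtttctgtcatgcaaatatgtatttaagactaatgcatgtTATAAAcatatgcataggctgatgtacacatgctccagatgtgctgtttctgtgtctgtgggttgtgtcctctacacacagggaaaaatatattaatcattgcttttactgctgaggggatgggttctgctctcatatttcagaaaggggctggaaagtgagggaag
The Col4a1 and Col4a2 windows share 78 bases of genome, read on opposite strands, and their start sites are 21 bases apart. The windows of Col4a5 and Col4a6, also on opposite strands, share no base, and their start sites are 1343 bases apart. The Col1a2 window holds CCAAT on the gene's strand from 109 bases before its start site (position -109), and on the opposite strand at position 0. It also holds GGGCGG at -205 and -188. The Col11a1 window holds GGGCGG at -110 and -19, and CCAAT on the opposite strand at -79. In the Col3a1 window TATAAA at -117 was the sole match. Over the 21 windows of measured collagen genes, CCAAT was found in 10, GGGCGG in 17 and TATAAA in 1, where 37.4%, 35.7% and 13.6% of all 32851 windows in the table held them. A match is a run of letters and not a shown binding site.

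Chains of the type I fibril, the main fibre of skin, bone and scar, were high above background and close to equal on the 2 arrays. Col1a1, the α1 chain, had 4859 units in control and 5297 units with CSF1 (probe set 1423669_at), a log2 ratio of 0.12. Its other probe set pointed the other way, with 3341 and 2809 units, so the mean over both was -0.06 ± 0.26 (SD between 2 probe sets). Col1a2, the α2 chain, had 18991 and 22188 units (probe set 1450857_a_at), 1.17-fold higher, and a mean of 0.20 ± 0.03 over 2 probe sets. A further probe set of Col1a2, below background with 104 and 51.7 units, brought the mean of all its probe sets to -0.20. The log2 ratio of Col1a1 minus that of Col1a2 was -0.10, less in size than the 0.42 that the pooled SD between probe sets gives for a difference of 2 genes.

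Col3a1, whose product forms the homotrimeric type III collagen found beside type I in soft tissue, was higher on both of its probe sets. The brightest, 1427883_a_at, had 18382 units in control and 24045 units with CSF1, 1.31-fold higher. The other had 2312 and 3958 units, 1.71-fold higher, and the probe set mean was 0.58 ± 0.27 (log2, SD, 2 probe sets). A loess correction for signal level put Col1a2 at 0.34 and Col3a1 at 0.51.

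Type V and type XI chains, which start and size the fibrils of type I and type II collagen, differed among themselves. Col11a1, the α1 chain of type XI, had 216 units in control and 559 units with CSF1 (probe set 1418599_at), 2.59-fold higher, the highest ratio among the 19 collagen genes above background on both arrays. Its other probe set had 231 and 496 units, 2.15-fold higher, and the probe set mean was 1.24 ± 0.19 (log2, SD, 2 probe sets). Col11a2, the α2 chain, was below background on both arrays, with 19.2 and 34.7 units. Col5a2, the α2 chain of type V, had 4975 and 7616 units, 1.53-fold higher, with a mean of 0.45 ± 0.23 over 2 probe sets. Col5a1, the α1 chain that pairs with it, had 1822 and 1730 units, a log2 ratio of -0.07, and a mean of -0.15 ± 0.26 over 3 probe sets of which 1 was above 0. The log2 ratio of Col5a1 minus that of Col5a2 was -0.69, and that of Col11a1 exceeded that of Col5a1 by 1.45, both larger in size than the 0.42 of a difference. Col5a3, the remaining type V chain, had 222 and 281 units, 1.27-fold higher. Its second probe set was below background on both arrays. With both probe sets averaged, Col5a3 passed background on the control array only, which gives a bound of -0.15.

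The remaining fibrillar chains were at or near background. Col27a1, a chain of cartilage matrix, had 60.2 units in control and 181 units with CSF1, at least 1.42-fold higher. Col2a1, the main collagen chain of cartilage, had 161 and 95.1 units, at least 1.26-fold lower. Col24a1 was just outside, with 119 and 96.1 units. In all, 9 of 11 fibrillar genes were measured, 7 of the 9 were above 0, and their median log2 ratio was 0.34. With all probe sets of a gene averaged, probe sets below background included, this median became -0.10, with 3 of 8 measured fibrillar genes above 0.

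**Figure D2:**
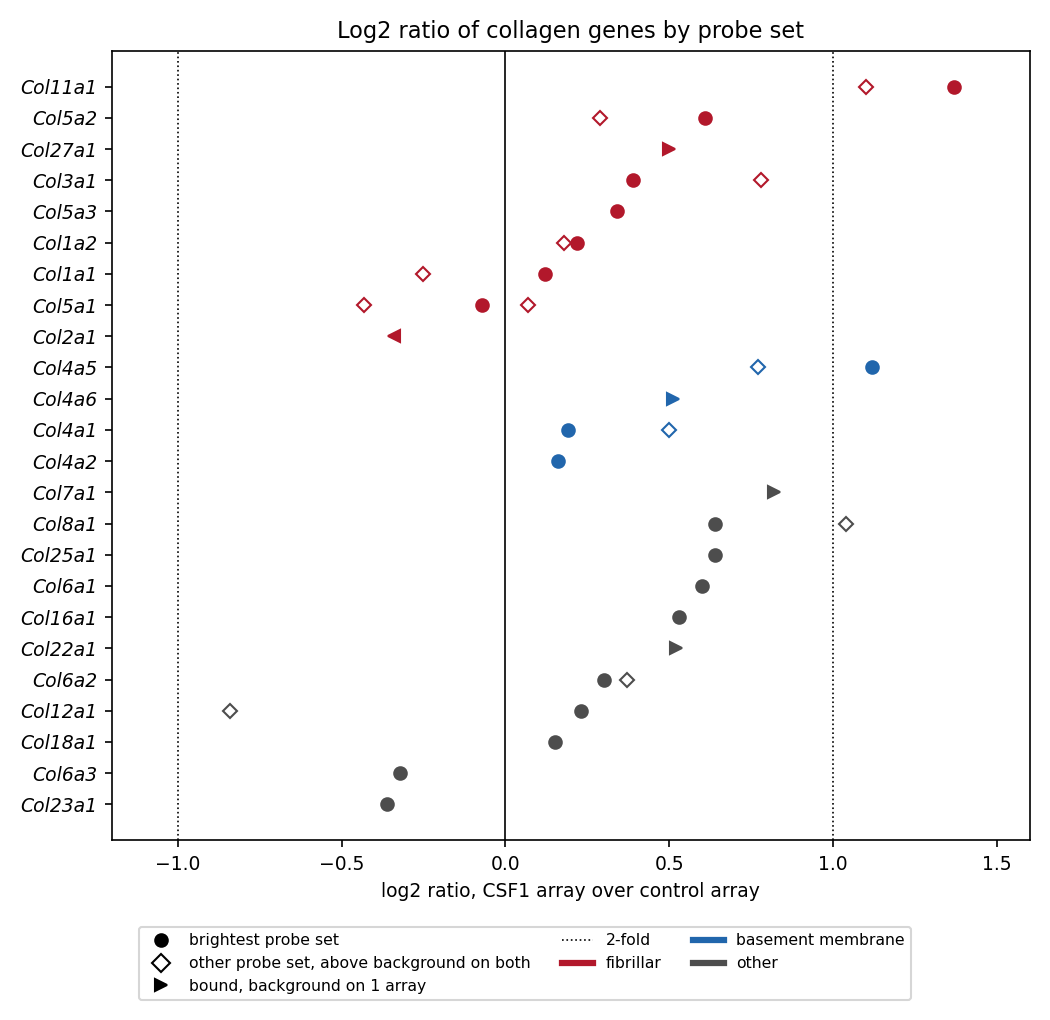
Log2 ratio (CSF1 over control) for the 24 measured collagen genes, by class. Filled circles are the brightest probe set, diamonds other probe sets above background on both arrays, triangles bounds, and dotted lines mark 2-fold; both probe sets of Col11a1 lie past 2-fold, and those of Col1a1, Col5a1 and Col12a1 lie on both sides of 0.

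Basement membrane chains were higher to unequal degrees, little for Col4a1 and Col4a2 and more for Col4a5. Col4a1, of the pair found in nearly all basement membranes, had 1940 units in control and 2212 units with CSF1, 1.14-fold higher, and a probe set mean of 0.34 ± 0.22 (log2, SD, 2 probe sets). Its partner Col4a2 had 771 and 860 units, 1.11-fold higher, and differed from the brightest probe set of Col4a1 by 0.03. Col4a5, a chain of specialised basement membranes such as those of kidney and muscle, had 446 and 973 units (probe set 1425476_at), 2.18-fold higher. Its other probe set had 285 and 486 units, 1.71-fold higher, which gave a mean of 0.95 ± 0.25 over 2 probe sets, just under 2-fold. The ratio of Col4a5 exceeded that of Col4a1 by 0.94, against 0.42 for a difference between probe sets. Col4a6, the head-to-head neighbour of Col4a5 on chromosome X, had 110 and 181 units, at least 1.42-fold higher, and with background at its stricter level of 176 units the bound was 0.04 on the log2 scale. Col4a3 and Col4a4, best known from kidney, lay between 5.04 and 28.1 units over all their probe sets and both arrays and were not above background. The median of the 4 measured type IV genes was 0.35.

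Type VI chains, which assemble into fine beaded filaments around cells, differed among themselves. Col6a1 had 574 units in control and 870 units with CSF1, 1.52-fold higher. Its neighbour Col6a2 had 618 and 760 units, 1.23-fold higher, with a probe set mean of 0.33 ± 0.05 (log2, SD, 2 probe sets, both of a kind that can match several transcripts). Col6a3, the large chain of the same trimer, had 442 and 353 units, 1.25-fold lower, on its 1 probe set. It stood below Col6a1 by 0.93 and below Col6a2 by 0.62. Col6a4 and Col6a5 were not above background on either array.

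Among the other chains, Col8a1, which forms short-chain networks under vessel and corneal endothelium, had 314 units in control and 490 units with CSF1, 1.56-fold higher. A second probe set had 172 and 354 units, 2.05-fold higher, and both averaged 0.84 ± 0.28 (log2, SD). A further one passed background on the CSF1 array only, with 48.8 and 175 units, so Col8a1 was higher on each of its 3 probe sets. Col7a1, the chain of the anchoring fibrils under epithelia, had 92.5 and 225 units, at least 1.76-fold higher.

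Of the chains that decorate fibrils, Col16a1 had 343 and 494 units, 1.44-fold higher. Col12a1 had 420 and 492 units, 1.17-fold higher, on its brightest probe set and 236 and 132 units, 1.79-fold lower, on another, a mean of -0.31 ± 0.76 (SD between 2 probe sets). Its direction therefore depends on the probe set. Col22a1 had 62.4 and 182 units, at least 1.43-fold higher. Col14a1, which just missed the level, had 82.2 and 126 units. The multiplexin Col18a1, the source of endostatin, had 144 and 160 units, 1.11-fold higher, while Col15a1 stayed below background with 112 and 117 units. The transmembrane chains went opposite ways near background: Col25a1 had 130 and 202 units, 1.56-fold higher, and Col23a1 had 184 and 143 units, 1.28-fold lower. Of 25 such other chains 11 were measured, with a median log2 ratio of 0.52. Among the 14 that were not were all 3 chains of type IX, a cartilage collagen, and Col10a1 of hypertrophic cartilage.

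The medians of the 3 classes lay close to each other on the brightest probe sets. The median of the other chains exceeded that of the fibrillar chains by 0.18 and that of the basement membrane chains by 0.17. The median of fibrillar minus that of basement membrane chains was -0.01. Without the bounds the medians were 0.34 for 7 fibrillar, 0.19 for 3 basement membrane and 0.30 for 9 other chains. Counting types VII, XV and XVIII as basement membrane collagens gave medians of 0.35 for that class and 0.52 for the rest. The order depended on the choice of probe sets: with all probe sets of a gene averaged, the medians were -0.10 for 8 fibrillar, 0.34 for 3 basement membrane and 0.53 for 7 other chains, bounds included.

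**Figure D3:**
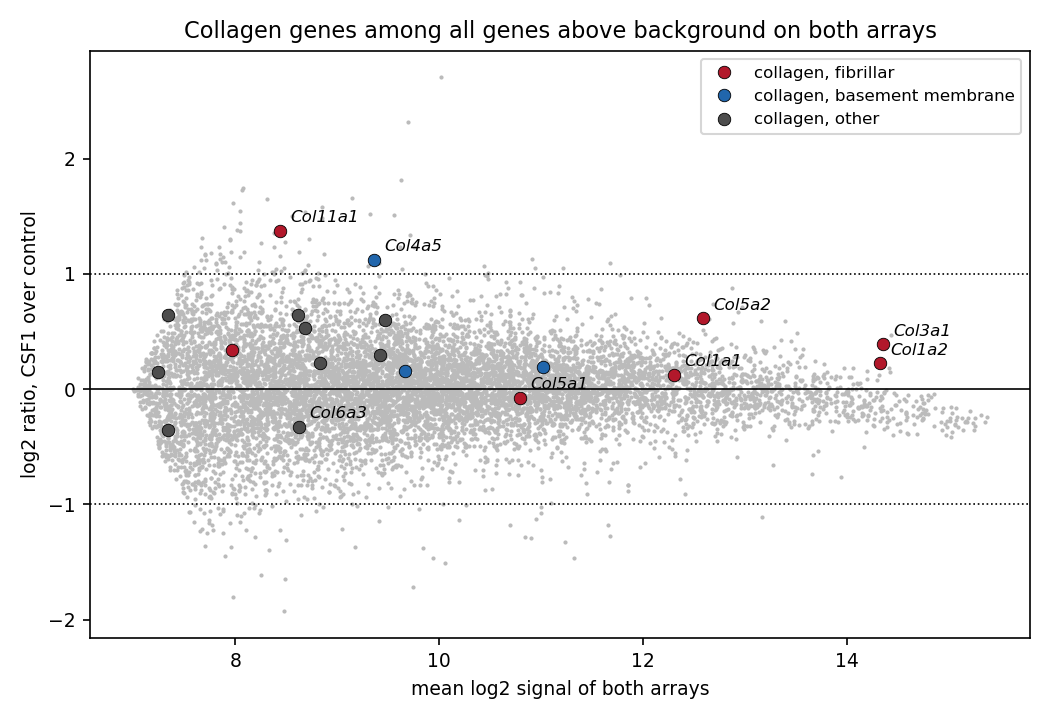
Log2 ratio (CSF1 over control) against the mean log2 signal for the 9898 genes that passed background on both (grey), with the 19 collagen genes in colour. Col11a1 and Col4a5 lie above the dotted 2-fold line, and 16 of the 19 lie above 0.

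Genes that modify and process collagen were divided, with more above 0 than below. Of 27 measured, 19 had a log2 ratio above 0, against 49.9% of all measured genes, and 8 below 0, with a median of 0.22. Past 2-fold were 0 in either direction, against 1.07% of measured genes higher and 0.848% lower. Of the 25 above background on both arrays, 9 differed upward by 1.25-fold or more, against 16.5% of all such genes. Downward were 2, against 14.9%. Pcolce and Pcolce2, which enhance the removal of the procollagen C-propeptide, were 1.77-fold and 1.87-fold higher, with 1215 and 2153 units for Pcolce and 227 and 424 units for Pcolce2. The chaperone gene Fkbp7 was 1.77-fold higher, the prolyl 3-hydroxylase gene P3h1 1.81-fold on its brightest probe set (mean 0.41 ± 0.64, SD between 2 probe sets), and the cross-linking oxidase gene Loxl1 1.71-fold. The collagen chaperone gene Serpinh1, also named Hsp47, was at 0.12, and the prolyl 4-hydroxylase subunit genes P4ha1 and P4hb were at -0.46 and -0.08. The lysyl hydroxylase gene Plod1 was 1.25-fold lower, and the oxidase gene Loxl4, above background in control only, at least 1.71-fold lower. Serpinh1, P4ha1, P4hb, Plod1 and Loxl4 were picked after their values were seen.

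Proteins that bind fibrils and basement membranes were partly higher. Of 10 measured fibril-associated genes, 7 were above 0, against 49.9% of all measured genes, with a median of 0.35. The small proteoglycan genes Dcn (decorin), Bgn (biglycan) and Ogn (osteoglycin) were 1.51-fold, 1.52-fold and 1.81-fold higher. Thbs1, an adhesive glycoprotein gene, was 2.16-fold lower. Of 11 measured basement membrane partners, 7 were above 0, against the same 49.9%, with a median of 0.16. The laminin gene Lamc1 was 1.68-fold higher and the matrix glycoprotein gene Sparc 1.39-fold. The 4 below 0 were Agrn, Lama4 at -0.21, Hspg2 at -0.15 and Npnt. Agrn and Npnt passed background in control only, Agrn at least 1.74-fold lower and Npnt with a bound that rounds to 0.00. Agrn, Hspg2 and Npnt were picked after their values were seen.

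Collagen receptor and breakdown genes did not share that direction. Among all measured genes, 49.9% were above 0. Of 12 measured receptor and uptake genes, 5 were above 0, with a median of -0.07, which quantile normalization put at 0.01 and centring on the spikes at 0.21. The discoidin domain receptor gene Ddr1 was 1.68-fold higher (mean 0.54 ± 0.22, SD between 4 probe sets) and the collagen uptake receptor gene Mrc2 1.65-fold, while the integrin gene Itga1 was 1.27-fold lower. Of 17 measured breakdown genes, 6 were above 0, with a median of -0.22, which was -0.05 after quantile normalization, -0.12 after loess correction, and 0.08 after centring on the spikes, or -0.20 relative to all genes. The gelatinase gene Mmp2 was 2.07-fold higher, with 1654 and 3421 units, and the neutrophil collagenase gene Mmp8 was 2.10-fold lower, with 2969 and 1412 units. Mmp9 and Pepd were 1.35-fold and 1.26-fold higher, and the cysteine protease gene Ctss was 1.28-fold lower.

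Markers of stromal cells were present on both arrays. Of 34 fibroblast markers fixed without collagens, 33 were on the array and 27 were above background on both arrays. Of these 27, 22 were higher on the CSF1 array, against 50.9% of all such genes, with a median of 0.32. Their summed signal was 140727 units in control and 152039 units with CSF1. Leaving out 6 that macrophages are known to express too (Vim, S100a4, Fn1, Gsn, Timp1 and Sparc), a choice made after seeing the data, gave 18 of 21 higher, a median of 0.37, and 27757 and 37129 units. The platelet-derived growth factor receptor genes Pdgfra and Pdgfrb had 831 and 1036 units and 332 and 569 units. Pdgfra was 1.25-fold higher on its brightest probe set, but the mean over 2 probe sets was -0.13 ± 0.63. The proteoglycan gene Lum had 527 and 650 units, and the surface marker Thy1 734 and 698 units, a log2 ratio of -0.07 that centring on the spikes put at 0.22. The fibroblast activation protease gene Fap was 2.28-fold higher and the matrix gene Efemp1, already known to differ on these arrays, 3.51-fold. The 5 lower markers were Tnc (1095 and 748 units, 1.46-fold lower), Fn1 (-0.26), Vim (-0.19), Prrx1 (-0.11) and Thy1. Fn1 and Vim are among the 6 left out above. Tnc, Fn1, Vim and Prrx1 were picked after their values were seen. Centring on the spikes left 1 of the 27 below 0, with 22 above the median of all genes. None of the 27 was at 0 as deposited, and the other 6 fibroblast markers on the array were below background on both arrays. Dcn, Lum, Fn1, Sparc, Loxl1, Ddr2 and Timp1 stand both in this list and in the matrix lists above, so these lists are not independent of each other.

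Macrophage markers were mostly lower as deposited, and both the amount and the direction relative to 0 depended on the scaling. All 13 on the array were above background on both arrays, 11 of them were lower on the CSF1 array, and the median was -0.21. Their summed signal was 246721 units in control and 209719 units with CSF1. Csf1r had 23704 and 18697 units and Cd68 38569 and 28929 units. The housekeeping genes Actb and Gapdh were both at -0.30 on their brightest probe sets. Their means were -0.30 ± 0.02 (SD, 5 probe sets) and -0.54 ± 0.22 (SD, 3 probe sets). After quantile normalization 10 of 13 markers were below 0 with a median of -0.09, and Cd68, Actb and Gapdh were at -0.14, -0.03 and -0.15. After loess correction the median was -0.17. After centring on the spikes 5 of 13 were below 0 and the median was 0.08, which is -0.20 relative to all genes. Mesothelial markers were mostly dim: 10 of 20 were measured, 7 of them on both arrays, and the median was 0.14. Msln was below background on both arrays, and Upk3b had 30.6 and 161 units. The transcription factor gene Wt1 had 175 and 195 units, Bnc1 134 and 224 units, 1.67-fold higher, and Efna5 300 and 403 units, 1.34-fold higher. Of the 10 measured, 7 were above 0, against 49.9% of all measured genes. The 3 below were Cdh1, with 293 and 100 units and at least 2.3-fold lower, Igfbp5 at -0.09 and Krt18 at -0.04. Cdh1 and Krt18 were picked after their values were seen. The summed signal of the measured mesothelial markers was 1742 and 2069 units. Smooth muscle and pericyte markers, which stromal cells can share, had a median of -0.03 over 8 measured, 3 above 0 and 5 below. Their summed signal was 29939 and 31217 units. Acta2, with 17657 and 18347 units, and Tagln, with 9263 and 10236 units, were at 0.06 and 0.14, and Mylk at 0.30. The 5 below 0 were Cnn1 at -0.49, Notch3 at -0.32, Des at -0.27, Actg2 at -0.05 and Kcnj8. The last passed background in control only and had a bound of -0.01. Acta2, Actg2 and Kcnj8 were picked after their values were seen. Endothelial markers had a median of -0.13 over 7 measured, with 1504 and 1386 units summed, and 3 of the 14 were above background on both arrays. Eng had 490 and 447 units, Vwf 267 and 184 units and Egfl7 159 and 210 units, while Pecam1 was below background on both. Cldn5 and Kdr passed background in control only, at least 2.01-fold and 1.74-fold lower. Esam and Flt1 passed it with CSF1 only, at least 1.32-fold and 1.05-fold higher. Cldn5, Kdr, Esam and Flt1 were picked after their values were seen. Fibroblast markers and most collagen chains were higher on the same array, and the part of stromal cells in the collagen values was not tested. In bulk RNA, more cells of a type and more RNA per cell cannot be told apart.

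**Figure D4:**
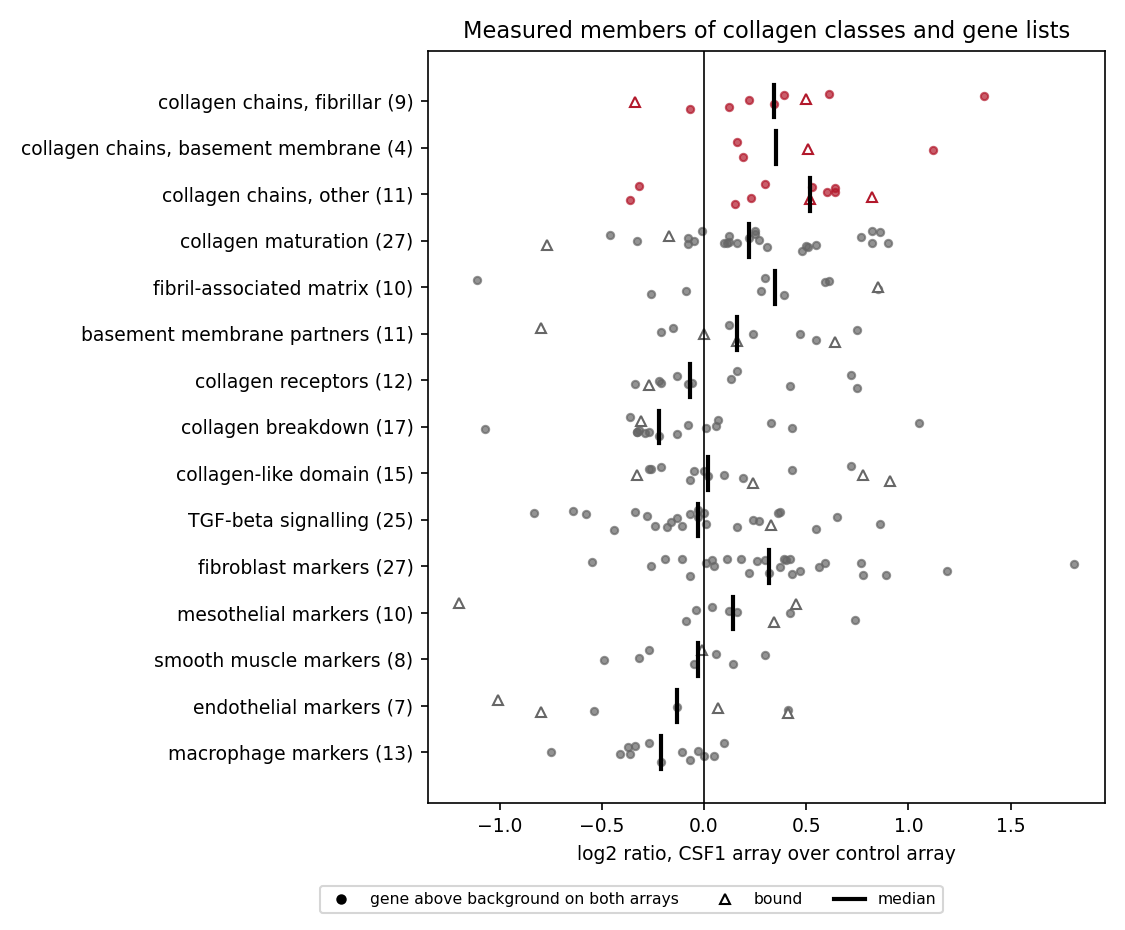
Log2 ratio (CSF1 over control) for measured members of the collagen classes (red) and of the gene and marker lists (grey), with the number measured in brackets. Circles are genes above background on both arrays, open triangles bounds and black bars medians; the medians of collagen chains and fibroblast markers lie right of 0, and that of macrophage markers left of it.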

How the data were processed

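Gene expression was measured on 2 Affymetrix arrays, 1 per group, grouped by their labels. Per the labels and the design text, the authors used GeneSpring 6.2, and they deposited linear intensity values, 1 per probe set. The summarization and the scaling of arrays are both not given in sources used here. All 42 collagen genes matched a RefSeq gene by Entrez ID.

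Values were moved to log2 without further scaling, and values below background were raised to it. Of 100 background genes fixed, 87 were on the array; 18 of them had a probe set above the level on an array. Named genes were all measured collagens, up to 5 members per list with the largest absolute ratio, and fixed markers. Efemp1, Mgp and Igfbp3 were added because they were already known to differ on these arrays. Others are named as picked later. Members and lists were chosen with earlier results of these data known. Names ending in _s_at, _x_at or _a_at, as for Col1a2, Col3a1, Col16a1, Col6a2 and Col2a1, can match several transcripts. The steps were tested on simulated data. Alternatives were other scalings, background levels, probe set choices and fold thresholds of 1.5 and 3. Python 3.11.15, numpy 2.4.6, pandas 2.3.3, statsmodels 0.14.6 and matplotlib 3.10.9 were used.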

Additional observations from a re-analysis of the deposited data

How the results depend on the processing

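No paired analysis was possible because each group held 1 array. A value was held to have moved when it shifted by 0.30, the pooled SD between probe sets, or more, or changed sign, and a count when it shifted by over 1.5 times. With no background level, all 42 collagen genes had a value, 8 were past 2-fold higher, 3 past 2-fold lower, and the median of other chains was 0.19. Averaging all probe sets put the median of fibrillar chains at -0.10, with Col1a1 and Col1a2 at -0.06 and -0.20 and Col5a3 at a bound of -0.15, and put Col4a5 at 0.95 and Col8a1 at 1.18. At fold thresholds of 1.5 and 3, 7 and 0 collagen genes were higher, and the shares of all genes at these thresholds were not worked out. Centring on the spikes put collagen maturation genes at 0.53, with all genes at 0.28. The other 99 values of the summary results stayed, among them the median of all measured collagen genes, which lay between 0.23 and 0.59. Signal near background limits Col4a6, Col7a1, Col18a1, Col22a1, Col23a1, Col25a1, Col27a1 and Col2a1. With the stricter level of 176 units Col18a1 and Col2a1 were not measured, and the bounds of Col27a1, Col22a1 and Col7a1 became 0.04, 0.05 and 0.35.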

Other observations

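Proteins that are not collagens but carry a collagen-like domain, many of them made by macrophages, had no common direction. Of 15 measured, 8 were above 0, with a median log2 ratio of 0.02. The scavenger receptor gene Marco had 6265 units in control and 10295 units with CSF1, 1.64-fold higher, with a mean of 0.72 over 2 probe sets. The complement genes C1qa, C1qb and C1qc were at -0.27 (0.03 with centring on the spikes), -0.07 and 0.10, and the scavenger receptor gene Msr1 at 0.00. C1qb, C1qc and Msr1 were named after their values were seen.

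Genes of TGF-beta and fibrogenic signalling, a known driver of collagen transcription, had a median of -0.03 over 25 measured, with 11 above 0. Centring on the spikes put that median at 0.26, or -0.02 relative to all genes. The co-receptor gene Tgfbr3 was 1.82-fold higher on its brightest probe set, with a mean of 0.45 ± 0.58 (SD between 2 probe sets). Tgfbi, a matrix protein gene that TGF-beta induces, was 1.78-fold lower, with a mean of -0.87 ± 0.20 over 4 probe sets. Skil, a transcriptional inhibitor of the pathway, was 1.56-fold lower, at -0.75 ± 0.16 over 2 probe sets.

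Among fixed genes, 3 matrix and secreted genes had been added because their difference between these arrays was known beforehand. Their ratios were higher than those of the 19 collagen genes above background on both arrays. Because of that choice, the comparison cannot show how collagens rank among matrix genes. Efemp1 was 3.51-fold higher, Mgp (matrix Gla protein) 2.87-fold and Igfbp3 4.99-fold, with 370 and 1848 units for the last.

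Markers of other cells that a peritoneal culture can hold had medians below 0 as deposited. The median log2 ratio was -0.47 over 8 measured T and NK cell markers (-0.12 with all probe sets averaged and -0.09 over the 6 measured without shared probe sets), -0.20 over 5 mast cell markers, -0.14 over 4 B cell markers and -0.27 over 3 epithelial markers. Centring on the spikes put the last 3 medians at 0.09, 0.12 and 0.02, each below that of all genes at 0.28. Of neutrophil and adipocyte markers, 2 and 1 were measured.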
